A study of Mus musculus with 20 samples.

Results

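The genes described here are 38 genes of DNA replication and nucleotide supply, found in the count table by their symbols, 1 row each among the 55401 genes listed. They were followed through 5 organs of Nsun6-KO mice and their WT counterparts. Nsun6 is an RNA methyltransferase that places m5C on mRNA, and the study asked whether its loss altered gene expression in mouse tissues. The KO strain was made by CRISPR/Cas9 in C57BL/6J fertilized eggs, with exons 3 and 4 of Nsun6 removed. Spleen, small intestine, heart, kidney, and liver came from 8-week-old female mice. Each organ had 2 WT and 2 KO libraries of stranded mRNA-seq, 20 in all. The replicates are described as biological, without saying that each was a separate animal, so a p-value measures the spread between these libraries. The total counts per library ran from 15897446 to 44508197, with a median of 28513950.

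Cells copy their genome once per division. In G1, the origin recognition complex, Cdc6, and Cdt1 load rings of the Mcm2 to Mcm7 helicase onto origins, and geminin (Gmnn) later blocks Cdt1 so that no origin is loaded again. At the start of S phase, Cdc45 and the GINS complex turn the rings into active helicases, primase and polymerase alpha lay down primers, the clamp loader Rfc places the Pcna clamp, and polymerases delta and epsilon extend the strands. Ribonucleotide reductase, thymidylate synthase, and thymidine kinase provide the deoxynucleotides. Most of these genes are switched on together by E2F factors when a cell enters the cycle, so bulk tissue with many dividing cells, such as the erythroid precursors of the mouse spleen or the crypts of the intestine, holds more of their mRNA. In bulk RNA, a change in the number of dividing cells and a change in mRNA per cell cannot be told apart.

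To show what the members share in sequence, the RefSeq promoters of GRCm38.p6 were searched from 250 bases before to 50 bases after the start. A window was found for 30 of the 38 members (34 windows). An E2F motif (TTTCCCGC, TTTCGCGC, TTTGCCGC, or TTTGGCGC, either strand) stood in 13 of the 34 windows, 38.2%, against 2.26% of all 32851 windows. The CCAAT motif, either strand, stood in 19 of the 34, 55.9%, against 37.4% of all windows. The median GC content was 58.8% in the members' windows and 52.7% in all windows, and the shares were not matched for it. The promoters below belong to 5 of the members with the smallest p of their role in the KO spleen, and Mcm6 was added after the search because it held 3 E2F matches. Lig1 also had the smallest p of its role but has 3 windows, none with a match in the 150 bases before the start, and is not printed. An E2F match stood 26 bases after the start in 1 of these windows. Gins1, with the smallest p of the helicase activators, had no window. Each shows the 150 bases before the start, 5′ to 3′ on the gene's strand, with E2F and CCAAT matches in capitals.
Orc1, chr4:108579304-108579453, plus strand: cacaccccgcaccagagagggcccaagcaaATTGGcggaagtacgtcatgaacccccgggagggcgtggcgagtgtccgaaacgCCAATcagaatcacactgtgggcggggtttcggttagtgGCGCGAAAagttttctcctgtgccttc
Mcm6, chr1:128359706-128359855, minus strand: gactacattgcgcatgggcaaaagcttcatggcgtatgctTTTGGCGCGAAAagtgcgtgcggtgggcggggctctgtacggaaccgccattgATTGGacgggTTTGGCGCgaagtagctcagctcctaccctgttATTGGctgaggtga
Pola1, chrX:93632156-93632305, minus strand: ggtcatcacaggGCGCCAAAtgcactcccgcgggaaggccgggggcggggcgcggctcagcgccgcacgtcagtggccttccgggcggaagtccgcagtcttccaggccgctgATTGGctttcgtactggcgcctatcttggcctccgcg
Rfc4, chr16:23127731-23127880, minus strand: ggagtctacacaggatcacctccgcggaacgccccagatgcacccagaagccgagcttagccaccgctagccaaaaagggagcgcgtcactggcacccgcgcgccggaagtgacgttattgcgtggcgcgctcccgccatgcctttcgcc
Tyms, chr5:30073626-30073775, minus strand: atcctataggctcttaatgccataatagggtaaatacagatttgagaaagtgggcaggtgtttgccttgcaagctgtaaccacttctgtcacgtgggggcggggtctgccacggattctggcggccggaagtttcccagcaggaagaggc
Chaf1a, chr17:56040266-56040415, plus strand: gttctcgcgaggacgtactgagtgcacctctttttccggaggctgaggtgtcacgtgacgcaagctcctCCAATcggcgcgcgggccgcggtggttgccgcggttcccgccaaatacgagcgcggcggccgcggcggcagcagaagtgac
Orc1 and Pola1 each held 1 E2F match in this stretch, and 2 of the 3 matches of Mcm6 overlapped, 1 on each strand. Rfc4 and Tyms held neither motif, and Chaf1a held a CCAAT match. These are matches of letters only. Binding was not measured.

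Nsun6 itself was counted over all of its exons, which does not check the genotype, since only 2 exons were removed. Its level, in RPKM (counts per kilobase of exon and per library size, TMM-scaled), was 1.21 and 0.871 in the WT spleen and 0.804 and 1.33 in the KO spleen. In the kidney it was 1.09 and 1.17 in WT and 0.781 and 0.663 in KO, and in the heart 1.40 and 1.33 in WT and 1.20 and 1.10 in KO. The log2 fold changes ran from -0.67 in the kidney to 0.080 in the spleen, and no organ passed edgeR's test (lowest unadjusted p = 0.177).

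The labelled organs carried their own markers. The summed level of 8 hepatocyte genes was between 80829 and 162896 RPKM in the liver, that of 8 kidney genes between 23238 and 56441 in the kidney, and that of 8 cardiomyocyte genes between 16638 and 30134 in the heart. Some libraries stood apart. The second WT spleen library had a summed hepatocyte level of 1518 RPKM, against 7.004, 57.9, and 80.2 in the other spleen libraries, with Alb at 1146, 1.57, 40.0, and 58.0, respectively. The first KO spleen library had 47.9 RPKM of the kidney gene Kap, which was at most 0.650 in the others. The first KO library of the small intestine had a summed cardiomyocyte level of 142.3 RPKM, against 3.62, 5.74, and 7.09 in the others, and a summed T cell level of 7.68, against 59.3, 95.4, and 70.9.

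In the small intestine the replicate numbers went with the segment of the gut. Fabp6, the ileal bile acid binding protein, stood at 14218 and 13071 RPKM in the first WT and first KO libraries and at 0.497 and 0.861 in the second ones. Pdx1, a factor of the proximal intestine, was listed at 0 in both first libraries and at 43.2 and 30.2 in the second WT and KO libraries. Each genotype thus had 1 library of each kind.

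The count table itself limited a few members. The counting command stored with the counts shows no strand option, whereas the study's methods name strand-specific counting. Of the 38 members, 14 share exon bases with another gene, mostly on the opposite strand. Without a strand option, a read touching both genes is left out, and with it, reads over opposite-strand overlaps are kept. Which was used for these counts was not settled. The share was 84.2% for Fen1, the flap endonuclease of Okazaki fragments, which overlaps Tmem258 and Gm10143 on the opposite strand. It was 67.3% for Gins2 and 52.5% for Chaf1a, and at most 15.1% in each of the other 11. Fen1 had between 0 and 53 counts per library, and the levels of these 3 genes are uncertain.

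Among organs, the members were highest in the spleen. They took between 0.183% and 0.353% of all counts there, between 0.0478% and 0.0890% in the small intestine, and 0.0294% to 0.0517% in liver, kidney, or heart. The median of the members' mean levels was 7.75 RPKM for spleen, 2.89 for small intestine, 1.67 for liver, 1.20 for heart, and 1.16 for kidney. By mean level, 35 of the 38 were highest in the spleen, against 25.7% of all genes, and in 25 every spleen library lay above every library of the other organs, against 12.2% of all genes. The small intestine came second for 20 members, the heart for 7, the liver for 5, the kidney for 4, and the spleen for 2.

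**Figure D1:**
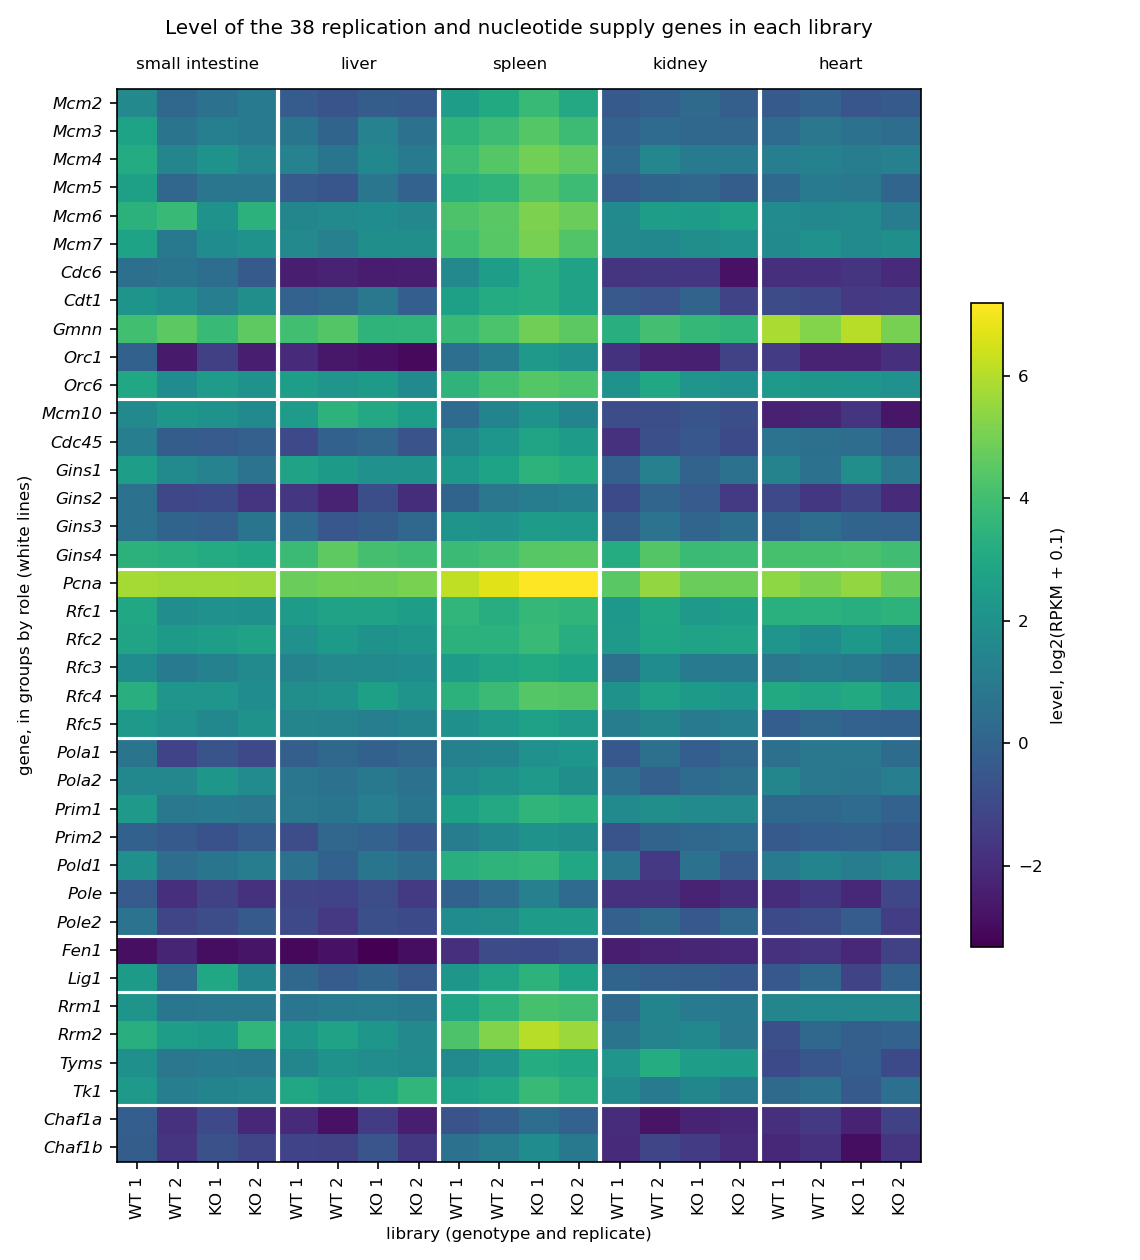
Level of each member (rows, grouped by role between white lines) in each of the 20 libraries (columns) as log2(RPKM + 0.1), brighter for higher. The 4 spleen columns are brightest in most rows, and Pcna, with a mean of 116.7 RPKM in the spleen, is the brightest row; Gmnn in the heart and Mcm10 in the liver go against the pattern.

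Tested by edgeR's quasi-likelihood test on all 20 libraries, with a call at an adjusted p under 0.1 and a fold above 2, 35 of the 38 members were higher in the spleen than in the mean of the liver, kidney, and heart (a mean of log2 levels), where 26.4% of all genes tested were called higher. The median log2 difference of the members was 2.34, and that of all genes 0.019. Between the spleen and the small intestine, 32 of 38 were higher in the spleen against 25.4% of all genes, with a median of 1.77. With WT libraries only, 14 were called, against 17% of all genes, and the median was 1.24. The small intestine exceeded the mean of the liver, kidney, and heart in 15 of 38 members against 26.4% of all genes, with a median of 0.55, and 8 were called without its first WT library, against 23.3% of all genes. No member was called lower in any of the 3 comparisons. On the TPM scale, the median of all genes moved by 0.61 for the spleen against the 3 organs and by 0.53 for the spleen against the small intestine, and the members' medians became 3.01 and 2.41.

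The licensing genes had the highest median of any role, a log2 difference of 3.54 between the spleen and the 3 organs. Cdc6 lay between 2.95 and 9.19 RPKM in the spleen, between 0.686 and 1.57 in the small intestine, and between 0.0409 and 0.230 in the liver, kidney, and heart. It was 43.0-fold higher in the spleen than in the 3 organs (log2 difference 5.43, standard error 0.30, adjusted p = 4.78e-09) and 8.98-fold higher in the small intestine. Orc1, a subunit of the origin recognition complex, lay between 1.34 and 4.88 RPKM in the spleen and between 0.0212 and 0.318 in the 3 organs, a log2 difference of 4.54 (standard error 0.49, adjusted p = 2.39e-06). For both genes, no spleen library overlapped a library of another organ. Each of the 6 helicase subunits, Mcm2 to Mcm7, was called higher in the spleen, with log2 differences between 2.78 and 3.70, and 5 of the 6 were also called higher in the small intestine than in the 3 organs. Cdt1, which loads the helicase with Cdc6, was 12.6-fold higher in the spleen and 5.37-fold higher in the small intestine than in the 3 organs.

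Gmnn did not follow the other licensing genes. Its level was 57.5 and 37.7 RPKM in the WT heart and 67.3 and 33.0 in the KO heart, against 13.8 to 30.2 in the spleen. The heart libraries were all above the spleen libraries, and the difference between the spleen and the 3 organs was -0.0018 on the log2 scale (standard error 0.23). Gins4, a GINS subunit, lay between 14.3 and 22.4 RPKM in the spleen, within the range of 9.08 to 23.7 in the 3 organs (log2 difference 0.18, standard error 0.20, adjusted p = 0.485). It was lower in the small intestine, between 7.64 and 10.5, with a log2 difference of -0.85 from the 3 organs (adjusted p = 0.00347), and was called 2.04-fold higher in the spleen than in the small intestine. Mcm10, which helps to activate the helicase, was highest in the liver, at 5.52 and 10.9 RPKM in WT and 8.02 and 5.91 in KO, with every liver library above the spleen range of 1.19 to 4.02. It was low in the heart, between 0.0555 and 0.195. Its call as higher in the spleen than in the 3 organs came from the mean of logs, since the low heart and kidney levels pull that mean down. None of these 3 genes shares exon bases with another gene.

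The clamp and its loader varied less among organs, with a median log2 difference of 1.55 between the spleen and the 3 organs. Pcna lay between 72.6 and 145.6 RPKM in the spleen and between 22.5 and 55.3 in the other organs, the highest level of any member in 4 of the 5 organs. Rfc1, the large subunit of the clamp loader, differed by only 0.66 (standard error 0.18), below the fold set for a call. The 7 primase and polymerase genes were all called higher in the spleen (median 2.29). Pold1 lay between 7.80 and 12.4 RPKM in the spleen, above the range of 1.23 to 3.82 in the small intestine and every library of the 3 organs. Pola1, the catalytic subunit of polymerase alpha, was the only one of them with an adjusted p under 0.1 for a lower level in the small intestine than in the 3 organs (log2 difference -0.72, standard error 0.33, adjusted p = 0.0811), at a fold below 2.

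Of the nucleotide supply genes, Rrm2, the small subunit of ribonucleotide reductase, lay between 19.1 and 65.8 RPKM in the spleen, between 5.16 and 11.997 in the small intestine, and between 0.494 and 6.62 in the liver, kidney, and heart. It was 19.8-fold higher in the spleen than in the 3 organs (standard error 0.26 on the log2 scale, adjusted p = 1.06e-08). Its partner Rrm1 differed by 2.52 on the log2 scale. Tyms, thymidylate synthase, had nearly equal means in the kidney and the spleen, 6.11 and 6.09 RPKM, and the ranges of those organs overlapped. On the TPM scale, Tyms was highest in the spleen, as were 36 of the 38 members. Lig1, the ligase of Okazaki fragments, lay between 4.64 and 10.9 RPKM in the spleen and between 1.19 and 7.46 in the small intestine, with overlap. The median difference of Chaf1a and Chaf1b, which place histones behind the fork, was 2.91.

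In the KO spleen the members were higher on the whole, though none passed the threshold in edgeR. All 38 were tested, and 37 had a log2 fold change above 0 (51.3% of all genes tested). Their median was 0.66, against 0.0072 for all genes. None was called, where 0.223% of all genes were. At an unadjusted p under 0.05, 22 members were higher and 0 lower, while 4.32% of all genes had such a p and were higher, and 5.14% had it in either direction. That count fell to 2 members (2.29% of all genes, either direction) when the spleen was tested in 1 fit of all 20 libraries, which share 1 estimate of the spread, and was 14 (5.66%) with limma on log2(TPM + 0.1). The members' medians in those fits were 0.63 and 0.54. Both KO libraries lay above both WT libraries in 24 of the 38, against 14.7% of all genes. DESeq2, with the same thresholds, called 3 members higher, Orc1, Tyms, and Rrm2, where it called 0.694% of all genes.

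**Figure D2:**
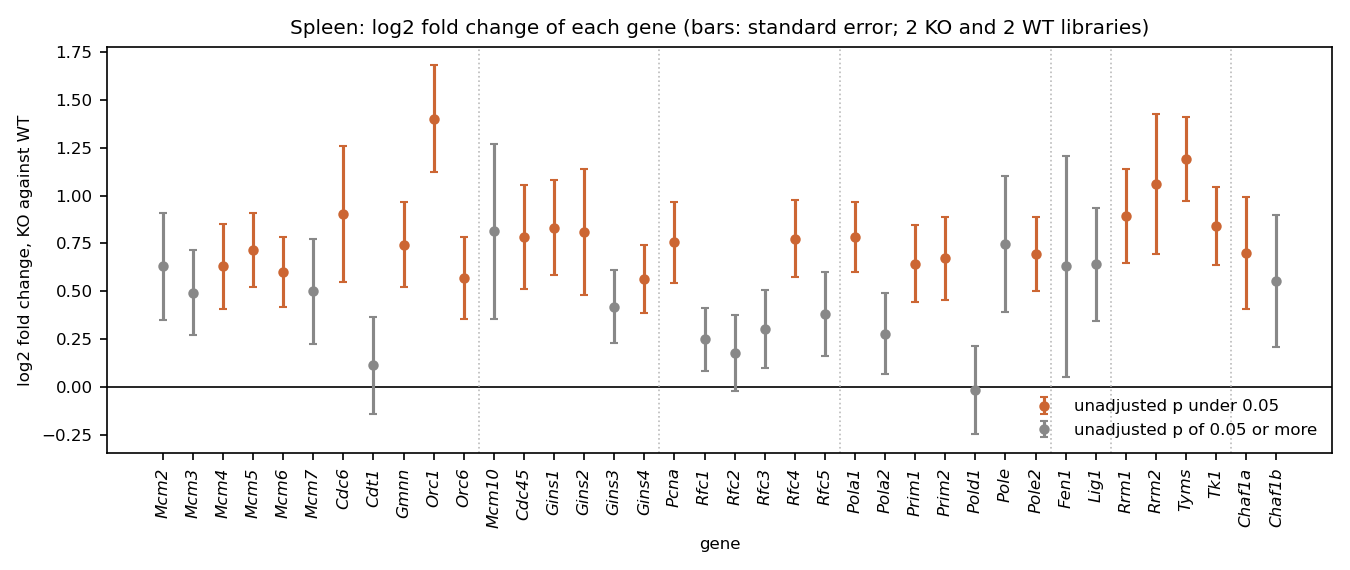
Log2 fold change of each member in the spleen, KO against WT (2 libraries each), with its standard error from edgeR, in order of role between dotted lines. Of the 38 points 37 lie above 0, from 0.11 for Cdt1 to 1.40 for Orc1, and Pold1 lies at -0.018; coloured points had an unadjusted p under 0.05.

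Among the 11 licensing genes, all had positive values, with a median of 0.63. Orc1 (ENSMUSG00000028587, chr4:108579423-108614833 of GRCm38) stood at 1.34 and 2.03 RPKM in WT and 4.88 and 3.84 in KO. Both KO libraries were well above both WT libraries. The log2 fold change of Orc1 was 1.40 (standard error 0.28), with an adjusted p of 0.187 in edgeR and 0.00109 in DESeq2. The 6 helicase subunits had values from 0.49 for Mcm3 to 0.72 for Mcm5. Of them 3, Mcm4, Mcm5, and Mcm6, had an unadjusted p under 0.05, where 4.32% of all genes had it and were higher. Mcm6 was at 19.02 and 22.5 RPKM in WT and 34.4 and 27.2 in KO. Gmnn, the inhibitor, was at 13.8 and 18.7 in WT and 30.2 and 23.1 in KO (0.74, standard error 0.22), in the same direction as the loaders Cdc6 and Orc1. Cdt1 overlapped between genotypes, at 6.16 and 8.72 in WT and 9.31 and 6.46 in KO (0.11, standard error 0.25).

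The helicase activators had a median of 0.80. An unadjusted p under 0.05 was seen in 4 of the 6, where 4.32% of all genes had it and were higher. Gins1 was at 4.76 and 6.67 RPKM in WT and 10.9 and 9.01 in KO, with no overlap (log2 fold change 0.83, standard error 0.25, adjusted p = 0.522 in edgeR). Mcm10 overlapped, at 1.19 and 2.61 in WT and 4.02 and 2.55 in KO (0.81, standard error 0.46), and its value came to 0.33 without the first WT library and 1.53 without the second.

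Of the clamp and its loader, Pcna and Rfc4 had an unadjusted p under 0.05, where 4.32% of all genes had it and were higher. The other 4 loader subunits had values between 0.18 and 0.38. Pcna was at 72.6 and 103.5 RPKM in WT and 145.6 and 145.0 in KO (0.76, standard error 0.21). Rfc4 was at 10.8 and 14.1 in WT and 21.5 and 20.2 in KO (0.77, standard error 0.20). Rfc2 showed little difference, at 10.7 and 10.3 in WT and 13.8 and 9.31 in KO (0.18, standard error 0.20).

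Pold1 alone of the primase and polymerase genes had a value below 0, and differences between the genes were not tested. Pola1, at 2.38 and 2.60 RPKM in WT and 3.83 and 4.51 in KO, did not overlap (0.78, standard error 0.18, adjusted p = 0.272 in edgeR). Pold1, the catalytic subunit of polymerase delta, was at 9.59 and 11.2 in WT and 12.4 and 7.80 in KO (-0.018, standard error 0.23). Both primase subunits, Prim1 and Prim2, had values of 0.64 and 0.67 without overlap between genotypes. The Okazaki fragment genes Lig1 and Fen1 had values of 0.64 and 0.63, both with overlap, and the WT libraries had 22 and 41 counts of Fen1 and the KO libraries 44 and 53. Without the first WT library the value of Fen1 came to 0.078, and without the second to 1.48. That of Lig1 came to 0.25 without the first KO library and to 0.99 without the second WT library.

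In the fit of the spleen libraries, every nucleotide supply gene had an unadjusted p under 0.05, where 5.14% of all genes did. Their median was 0.98. The roles differ in size and were not tested against each other. Tyms (ENSMUSG00000025747, chr5:30058202-30073617 of GRCm38) was at 3.12 and 4.43 RPKM in WT and 9.02 and 7.81 in KO, a 2.28-fold difference. Its log2 fold change was 1.19 (standard error 0.22), with an adjusted p of 0.148 in edgeR and 0.000354 in DESeq2. Rrm2 (ENSMUSG00000020649, chr12:24708241-24714146) was at 19.1 and 37.0 in WT and 65.8 and 49.2 in KO (1.06, standard error 0.37, adjusted p = 0.847 in edgeR and 0.0453 in DESeq2). The value of Rrm2 came to 0.64 without the first WT library and to 1.66 without the second. The values of Rrm1 and Tk1, thymidine kinase, were 0.89 and 0.84. Behind the fork, Chaf1a was at 0.552 and 0.802 in WT and 1.26 and 0.899 in KO (0.70, standard error 0.29). Chaf1b overlapped (0.55, standard error 0.35). Leaving out 1 library moved Chaf1a between 0.43 and 1.03 and Chaf1b between 0.045 and 0.92.

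**Figure D3:**
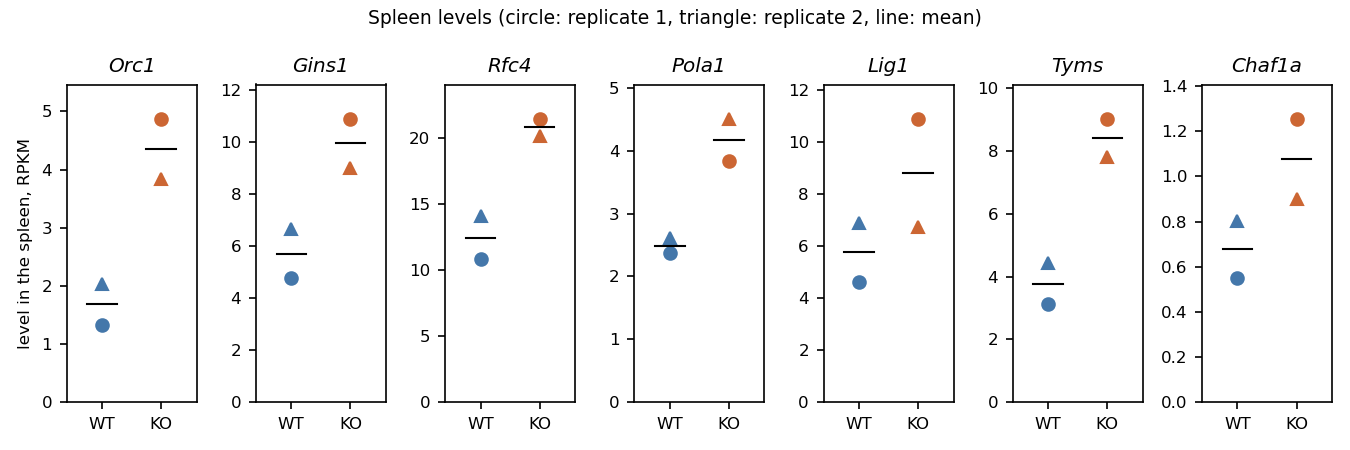
Spleen levels in RPKM of the member with the smallest p in each role, by genotype, with the vertical axis from 0, a circle for replicate 1, a triangle for replicate 2, and a line for the mean. The KO points lie above the WT points for each gene except Lig1, whose second KO library, at 6.75, lies below the second WT library, at 6.90.

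The size of the difference depended on which spleen libraries were set against each other. The members' summed level was 326.2 and 440.4 RPKM in WT and 653.5 and 541.1 in KO, and the second WT library was above the first in 35 of 38 members. Between the first libraries of each genotype, all 38 were higher in KO with a median of 1.02 on the log2 scale. Between the second ones, 26 were higher with a median of 0.27. Without the second WT library, which held the hepatocyte mRNA, all 38 were higher with a median of 0.93, and edgeR called 6 (Mcm10, Cdc6, Orc1, Rrm1, Rrm2, and Tyms), where it called 1.35% of all genes. Without the first WT library, 36 were higher, the median was 0.43, 5 had an unadjusted p under 0.05 (5.76% of all genes), and none was called, where 1.86% of all genes were. Without the first KO library, which held Kap, 35 were higher with a median of 0.47, and 10 had an unadjusted p under 0.05 (10.7% of all genes).

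The KO effect in the spleen was also tested against the mean KO effect of the other 4 organs. The difference was positive in 37 of 38 members, with a median of 0.76 against -0.020 for all genes. None was called, as for all genes (0%). At an unadjusted p under 0.05, 2 members, Tyms and Pcna, had a larger effect in the spleen, against 1.06% of all genes, and DESeq2 gave 6 such members (1.79% of all genes, either direction). Leaving out 1 library gave between 0 members, without the first WT (2.05% of all genes, either direction) or the first KO spleen library (1.56%), and 11, without the second WT library of the small intestine (2.47%), and medians between 0.54 and 1.0034. The difference was 1.32 for Tyms (standard error 0.49, adjusted p = 0.99998 in edgeR) and 0.81 for Pcna (standard error 0.36).

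**Figure D4:**
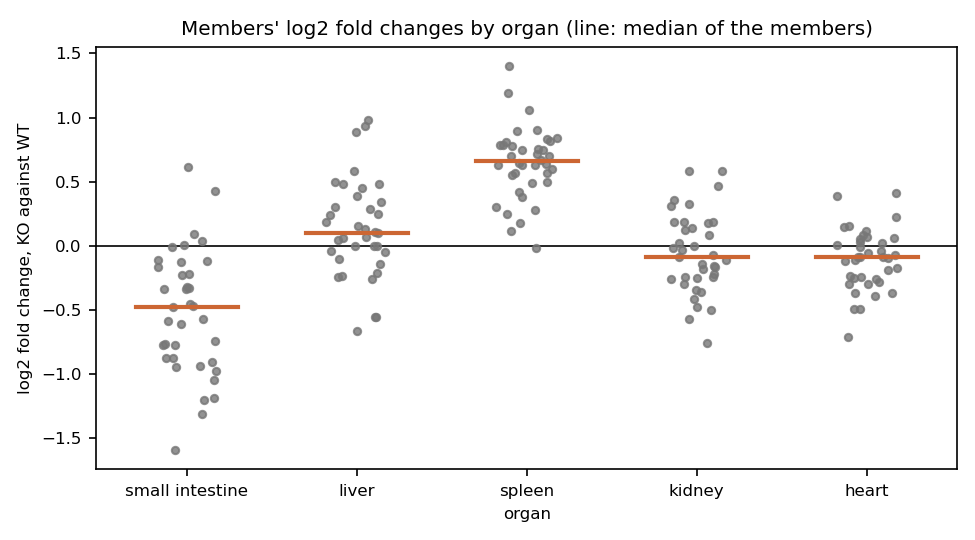
Log2 fold change, KO against WT, of each member tested in each organ (points, spread sideways for display) with their median (line). The spleen points lie almost wholly above 0, the small intestine points mostly below it, and the medians of the liver, kidney, and heart are between -0.090 and 0.10.

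In the liver, 36 members were tested (not Orc1 or Fen1), with 22 above 0 and a median of 0.10. The median turned to -0.088 without the first KO library and to -0.083 with limma on log2(TPM + 0.1). None was called by edgeR, against 0.0509% of all genes, or by DESeq2, against 0.207%. Gmnn alone had an unadjusted p under 0.05, where 4.7% of all genes did. It was at 16.2 and 20.6 RPKM in WT and 11.4 and 11.8 in KO, without overlap (log2 fold change -0.67, standard error 0.22, adjusted p = 0.948 in edgeR). Gins2 had the highest value, 0.98, with a standard error of 0.74, which came to 0.00025 without the first KO library.

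In the kidney and heart no member was called. The kidney had 37 members tested and a median of -0.090, with 0 at an unadjusted p under 0.05 (0.638% of all genes) and 0 called by edgeR (0% of all genes) or DESeq2 (0%). The extremes there were Cdc45 (0.58, standard error 0.70) and Cdc6 (-0.76, standard error 0.90). Without the first WT library Cdc45 came to 0.034, and without the second to 1.47, while Cdc6 came to 0.020 without the second KO library. The kidney median turned to -0.38 without the first WT library, where Pold1 and 16.1% of all genes were called, and to 0.28 without the second. In the heart all 38 were tested, with a median of -0.089 and 0 at an unadjusted p under 0.05 (0.703% of all genes), and 0 were called by edgeR (0% of all genes) or DESeq2 (0.0107%). Cdt1 was at 0.436 and 0.385 RPKM in the WT heart and 0.239 and 0.264 in the KO heart (-0.71, standard error 0.63), and Gins1 had the highest value there, 0.41 (standard error 0.54).

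In the small intestine 37 members were tested, and 32 were below 0, with a median of -0.48. None was called (0% of all genes in edgeR, 0.178% in DESeq2), and none had an unadjusted p under 0.05, where 2.39% of all genes did. The KO libraries were both under the WT ones in 4 of the 37 members, Mcm6, Cdc6, Gins1, and Gins4, against 10% of all genes. This count sets libraries of different gut segments against each other. Gins2 had the lowest value, -1.59 (standard error 0.87), which came to -0.36 without the first WT library. Lig1 had the highest, at 5.18 and 1.19 RPKM in WT and 7.46 and 2.61 in KO (0.61, standard error 0.89). The value of Lig1 turned to -0.30 without the first KO library and came to 2.03 without the first WT library. The first WT library was the highest of the 4 in 29 of 38 members, a count not taken over all genes. Between the first libraries, those with Fabp6, 3 of 38 members were higher in KO and the median was -0.99. Between the second ones, 27 were higher and the median was 0.16. In both pairs 10 of the 38 were lower in KO and 2 were higher, and the share over all genes was not taken. With the replicate number as a block, 2 members were lower at an unadjusted p under 0.05 (5.83% of all genes, either direction) and none was called. Without the first WT library the median over all tested members was 0.28, and without the first KO library, which held the cardiomyocyte mRNA, it was -0.43.

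Other genes moved with that library. The summed mitosis genes were at 164.4 RPKM in the first WT library against 43.7, 63.8, and 45.4 in the second WT and the first and second KO libraries, and all 22 were highest there. The 8 stem and crypt genes summed to 117.9 against 55.6, 51.3, and 51.5, and Olfm4, at 87.0, made up most of this. The other 7 summed to 30.9 against 31.9, 23.04, and 26.7, with Rnf43 at 2.34 against 15.1, 2.09, and 9.62. Of the 8 crypt genes, 5 (Olfm4, Lgr5, Ascl2, Axin2, and Cdca7) were highest in the first WT library, and none was at 0 in any library. The 8 villus enterocyte genes, led by Fabp2, summed to 6960 against 16144, 10984, and 16637, and 6 of them were lowest there. The 8 B cell genes, led by Cd79b, summed to 136.6 against 6.73, 1.02, and 28.4, with Cd79a at 0 in 1 library. The part of these cells in the members' levels was not tested.

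**Figure D5:**
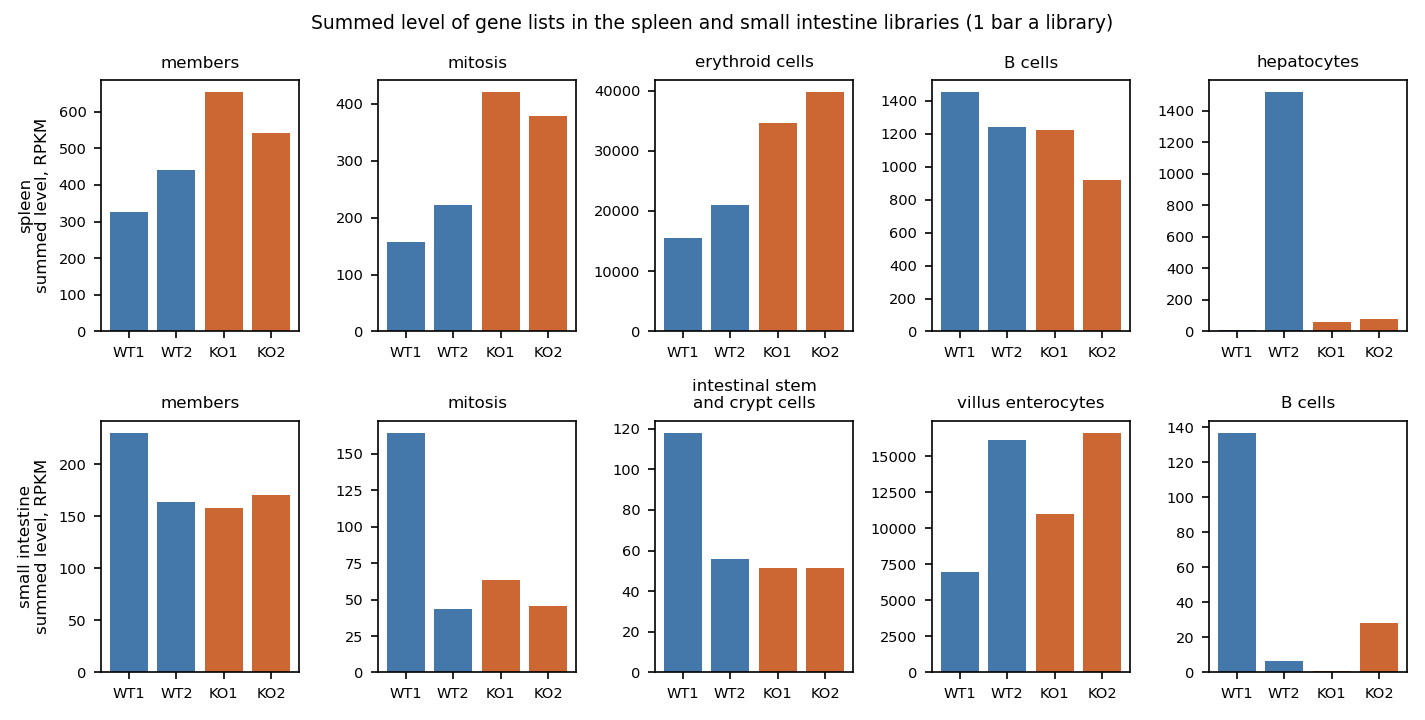
Summed level in RPKM (bars from 0, 1 per library, WT first) of the members and of marker lists in the spleen (top) and small intestine (bottom). In the spleen the members, mitosis genes, and erythroid genes are higher in both KO libraries than in both WT libraries, and hepatocyte genes stand out in the second WT library. In the small intestine the members, mitosis, and B cell genes are highest in the first WT library. The crypt sum is highest there as well, with Olfm4 its largest part.

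Other genes of replication were mostly higher in the KO spleen as well. Of 59 further replication and nucleotide genes, 55 were above 0 with a median of 0.34. At an unadjusted p under 0.05, 17 were higher (4.32% of all genes) and none lower, and 0 were called (0.223%). These counts, and those of the lists below, came from the fit of the spleen libraries alone. Esco2, which joins sister chromatids in S phase, was at 2.11 and 2.95 RPKM in WT and 6.02 and 6.85 in KO (log2 fold change 1.38, standard error 0.22, adjusted p = 0.120 in edgeR). Samhd1, which breaks down deoxynucleotides, was the most abundant and had a value of -0.18 (standard error 0.15).

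Of 22 genes of S phase control, 19 were above 0 with a median of 0.26. An unadjusted p under 0.05 was seen in 5 (5.14% of all genes), and 0 were called (0.223%). E2f2, a transcription factor of the E2F family, was at 11.3 and 10.4 RPKM in WT and 19.7 and 16.9 in KO (0.79, standard error 0.15, adjusted p = 0.169 in edgeR). Cdkn1b, a cyclin-dependent kinase inhibitor and the most abundant of them, had a value of 0.099 (standard error 0.16).

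Mitosis genes had a median above that of the members. All 22 were above 0 with a median of 1.03. An unadjusted p under 0.05 was seen in 21, where 4.32% of all genes had it and were higher. By the threshold of edgeR's test 2 rose, where 0.223% of all genes were called in either direction. Mki67, the gene of the Ki-67 antigen of dividing cells, was at 31.3 and 36.4 RPKM in WT and 88.4 and 85.9 in KO (1.40, standard error 0.17, adjusted p = 0.0711). Cenpf, a centromere protein, was at 1.84 and 2.28 in WT and 4.70 and 5.45 in KO (1.34, standard error 0.19, adjusted p = 0.0969).

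Erythroid genes were higher in the same libraries. All 20 were above 0 with a median of 1.33. An unadjusted p under 0.05 was seen in 19, where 4.32% of all genes had it and were higher. Of the 20, 7 were called (0.223% of all genes, either direction), among them Slc4a1, the anion exchanger of red cells. Slc4a1 was at 44.8 and 48.5 RPKM in WT and 139.3 and 130.9 in KO (1.57, standard error 0.16, adjusted p = 0.0656). The summed level was 15508 and 21002 in WT and 34649 and 39758 in KO, led by Hbb-bs, a beta globin, and no erythroid gene was at 0 in a spleen library. The 8 B cell genes were all below 0 (median -0.19, 0 called), with sums of 1454 and 1240 in WT and 1226 and 918.9 in KO. Whether the members' higher level in the KO spleen lay in erythroid precursors or in other cells was not tested.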

How the data were processed

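The deposited table held raw counts of reads per gene, 1 column per library, and also listed gene lengths. As the methods and labels give it, the authors trimmed reads with cutadapt, aligned them to mm10 with HISAT2 2.1.0, counted them with featureCounts 2.0.1, and tested them with DESeq2. The 38 members and the other gene lists were chosen with earlier results of these data known.

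From the deposited counts, edgeR 4.0.16 (R 4.3.3) was fitted to the 4 libraries of each organ with TMM scaling, filterByExpr, and robust quasi-likelihood. Levels across organs, and the KO effect in the spleen against that in other organs, came from 1 fit of all 20 libraries. P-values were adjusted by Benjamini-Hochberg over all genes tested, and a call needed an adjusted p under 0.1 and a fold above 2. The log2 fold changes are KO over WT. RPKM and TPM values were computed here from the deposited counts and gene lengths. With 2 libraries per group, small differences cannot be resolved.

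Levels or log2 fold changes were given for the members with the smallest and largest p of each role in the spleen. The same was done for the highest and lowest fold change in each other organ, and for the extremes across organs. Further members, among them Mcm6, Gmnn in the spleen, and Pcna, were chosen after their values were seen. Alternatives were DESeq2 1.42.0, limma 3.58.1 on log2(TPM + 0.1), other scaling, filters, and thresholds, a replicate block, and leaving out each library. The edgeR steps were tested on simulated data.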

Additional observations from a re-analysis of the deposited data

Results flagged for a closer look

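In 10 pairs of organs, covering 9 members, both KO libraries lay above both WT libraries in the spleen and below both in the other organ. The difference between the organs of each pair was not tested, and the test of the spleen against the mean of the other 4 organs called none of them. Against the small intestine, the log2 fold changes were -0.78 for Mcm6 (0.60 in the spleen), -0.62 for Cdc6 (0.90), -1.21 for Gins1 (0.83), and -0.34 for Gins4 (0.56). In the liver they were -0.67 for Gmnn (0.74 in the spleen) and -0.56 for Gins1. In the heart they were -0.19 for Orc6 (0.57 in the spleen), -0.49 for Cdc45 (0.78), and -0.28 for Gins3 (0.42). In the kidney, Prim1 was at -0.18, against 0.64 in the spleen. Of all genes tested in both organs, 1.6% met the same rule for the small intestine, 1.97% for the liver, 0.994% for the heart, and 1.31% for the kidney. The spleen part of the rule was already met by 24 of the 38 members, against 14.7% of all genes. The members' counts therefore start from a larger share, and an excess over these percentages says nothing about the other organ.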

How the results depend on the processing

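Precision was limited by 2 libraries per group. In the KO spleen, 3 members were called with DESeq2 (0.694% of all genes), 3 without a filter on low counts (1.04%), and 1 with at least 10 counts in every library (0.628%). Leaving out each library in turn gave 0 to 6 calls and medians of 0.43 to 0.93 in the spleen, and 0 to 1 calls with medians of -0.38 to 0.28 in the kidney. The median ran from -0.90 to 0.28 in the small intestine and from -0.088 to 0.22 in the liver, where limma on log2(TPM + 0.1) gave -0.083. The calls for the small intestine over the liver, kidney, and heart ran from 8 (23.3% of all genes) to 16 (25%), and were 9 with KO libraries only, where 24.6% of all genes were called. The spleen exceeded the small intestine in 14 members with WT libraries only (17% of all genes). With limma, Cdt1 turned to -0.034 and Rfc2 to -2.19e-05 in the KO spleen. Without 1 library, the log2 fold changes ran from -0.17 to 0.42 for Cdt1, -0.14 to 0.42 for Rfc2, -0.39 to 0.26 for Pold1, 0.078 to 1.48 for Fen1, and 0.33 to 1.53 for Mcm10 in the spleen, -0.30 to 2.03 for Lig1 and -2.27 to -0.36 for Gins2 in the small intestine, -2.39 to 0.020 for Cdc6 and 0.034 to 1.47 for Cdc45 in the kidney, 0.00025 to 1.58 for Gins2 in the liver, and -0.18 to 0.90 for Gins1 in the heart. The cause of these changes was not tested. Replicate numbers did not pair the samples in every organ (r between -0.0027 and 0.587 for the replicate differences of WT and KO). With a replicate block, no member was called in any organ (0.228% of all genes in the spleen, 0.127% in the liver, 0.0361% in the heart), the spleen median was 0.69 with 20 members at an unadjusted p under 0.05 (4.21% of all genes), and the small intestine median was -0.45.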

Other observations

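Marker genes of other cell types were followed in the KO spleen. For the 8 T cell genes the median on the log2 scale was 0.11, and none had an unadjusted p under 0.05. The 7 plasma cell genes had a median of 0.21, led by Jchain, the joining chain of secreted antibodies, at 301.1 and 298.2 RPKM in WT and 389.3 and 655.8 in KO (0.85, standard error 0.27, adjusted p = 0.617 in edgeR). The 8 germinal centre B cell genes had a median of 0.49. All 10 neutrophil genes were below 0 (median -0.85), with a summed level of 419.3 and 861.3 in WT and 252.1 and 619.5 in KO, which overlapped. The 6 megakaryocyte genes tested were all below 0 (median -0.49), and Pf4, platelet factor, had a value of -0.60 (standard error 0.23, adjusted p = 0.844 in edgeR). None of these genes was called.

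The 22 mitosis genes had a median of 0.65 in the KO heart (18 above 0), 0.15 in the liver (16), -0.25 in the kidney (5), and -1.03 in the small intestine (1), where the first WT library was the highest for all 22. In the heart their summed level was low and overlapped, at 9.90 and 15.8 RPKM in WT and 20.6 and 15.5 in KO. The smallest unadjusted p there in edgeR was 0.0438, for Tpx2 (adjusted p = 0.99998), and 0% of all genes were called.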
